A study of Homo sapiens with 12 samples.

Results

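The SCF and APC/C ubiquitin ligases tag cell cycle proteins for destruction, and 10 genes that encode or control them were followed here across U2OS cells that express E2F1 or its derivatives. The members were the rows of the count files with the symbols SKP2, CKS1B, CUL1, FBXW7, BTRC, CCNF, CDC34, FBXO5, CDC20, and FZR1, which are 10 of the 25369 genes listed. U2OS is a human osteosarcoma cell line, and the parental cells carry the Tet-On system, in which doxycycline turns on a gene placed behind a pTRE promoter. The 4 stable lines carried the empty vector (pTRE), HA-tagged wild-type E2F1 (WT), or 1 of 2 derivatives in which arginine residues that are normally methylated are replaced by lysine, R109K and R111/113K (KK). Every line, pTRE included, was grown with G418 and hygromycin B and received 1 ug/ml doxycycline for 24 h before poly(A) RNA was sequenced from 3 biological replicates per line. The sources used here do not say whether a line was 1 clone, so a feature of a line and the action of its construct cannot be told apart.

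An SCF ligase is built on the scaffold cullin 1, which holds a RING protein and an E2 enzyme at one end and the adaptor SKP1 with an F-box protein at the other. The F-box protein chooses the substrate, often only after the substrate has been phosphorylated, so 1 scaffold serves many receptors. The APC/C is a larger ligase that works from mitosis into G1. It is switched on first by CDC20, which starts anaphase, and then by FZR1 (CDH1), and it is held back during S phase and G2 by FBXO5 (EMI1). Both machines meet in a loop, since the APC/C with FZR1 degrades SKP2 in G1. What follows concerns RNA, and the stability of the proteins was not measured.

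SKP2, CCNF, and CUL1 were separated from pTRE in every line with an E2F1 construct. SKP2 and CCNF, which encode F-box receptors, had more than 2 times the pTRE level in the WT, R109K, and KK lines. CUL1, the scaffold they share, fell to 0.522 times its pTRE level in WT, 0.571 times in R109K, and 0.546 times in KK. FBXO5 rose by 61.0% in R109K and missed the threshold in WT and KK. CKS1B, FBXW7, BTRC, CDC34, CDC20, and FZR1 did not pass the test in any comparison with pTRE.

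The 250 bases in front of the start site of transcription are shown for SKP2, CCNF, and CUL1, the genes called in each line, and for FBXO5 and CDC20, because their windows carry elements typical of late cell cycle genes. The CKS1B window carries such elements too and is not shown. Capitals mark 2 kinds of letters, a CHR element (cell cycle genes homology region, TTTGAA or TTCGAA) and a CCAAT box, on either strand, which appear as TTCAAA and ATTGG where the match is on the other strand. The sequences come from the RefSeq promoter table of GRCh38 and were placed on GRCh37 by exact match. They lie at chr5:36151963-36152212 on the plus strand for SKP2, chr16:2479198-2479447 on the plus strand for CCNF, chr7:148395745-148395994 on the plus strand for CUL1, chr6:153304177-153304426 on the minus strand for FBXO5, and chr1:43824402-43824651 on the plus strand for CDC20.
SKP2: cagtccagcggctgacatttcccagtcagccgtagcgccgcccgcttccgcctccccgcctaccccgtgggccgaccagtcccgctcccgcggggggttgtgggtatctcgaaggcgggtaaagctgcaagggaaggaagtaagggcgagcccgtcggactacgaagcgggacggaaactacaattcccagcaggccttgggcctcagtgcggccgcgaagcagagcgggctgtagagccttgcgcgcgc
CCNF: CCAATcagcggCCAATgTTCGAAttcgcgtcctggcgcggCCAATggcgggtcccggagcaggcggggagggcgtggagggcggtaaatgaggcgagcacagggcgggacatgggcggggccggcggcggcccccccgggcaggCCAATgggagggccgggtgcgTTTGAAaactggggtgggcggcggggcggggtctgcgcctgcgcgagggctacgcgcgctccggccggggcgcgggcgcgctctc
CUL1: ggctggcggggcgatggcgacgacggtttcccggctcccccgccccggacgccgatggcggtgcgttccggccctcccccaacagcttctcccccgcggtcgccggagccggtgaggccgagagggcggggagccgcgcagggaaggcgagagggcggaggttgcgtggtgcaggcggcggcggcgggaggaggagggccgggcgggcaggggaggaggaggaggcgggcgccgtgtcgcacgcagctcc
FBXO5: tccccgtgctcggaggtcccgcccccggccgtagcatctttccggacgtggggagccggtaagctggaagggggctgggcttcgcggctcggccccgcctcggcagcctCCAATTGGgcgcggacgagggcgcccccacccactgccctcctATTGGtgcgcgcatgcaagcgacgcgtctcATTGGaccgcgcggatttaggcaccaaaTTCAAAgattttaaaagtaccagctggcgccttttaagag
CDC20: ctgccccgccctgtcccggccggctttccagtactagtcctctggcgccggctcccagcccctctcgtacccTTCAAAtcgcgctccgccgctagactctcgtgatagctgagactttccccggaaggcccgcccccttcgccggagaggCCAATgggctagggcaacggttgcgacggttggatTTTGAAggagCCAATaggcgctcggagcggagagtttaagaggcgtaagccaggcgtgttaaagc

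In these windows, extended to 50 bases past the start site, both elements were found in 4 of the 9 members that have an entry, CKS1B, CCNF, FBXO5, and CDC20. Among all 35116 promoter windows of that length, 6.38% held both. A CHR element alone or with the box was present in 5 of the 9, FZR1 being the fifth, against 16.4% of all windows, and a CCAAT box in 4 of the 9 against 34.6%. Counted from the start site, the CHR element of FBXO5 began at -40, with 4 CCAAT matches upstream of it, of which the first pair overlaps on opposite strands. In CDC20, CHR elements began at -178 and -65 and CCAAT boxes at -100 and -55. CKS1B had 5 CCAAT boxes and a CHR element at -30. CCNF had 4 CCAAT boxes and CHR elements at -233 and -85, the first of which reads the same on both strands. The SKP2 window and the CUL1 window shown held neither element. These counts depend on the start site, which was the RefSeq start nearest the canonical transcript of GENCODE. CUL1 has 5 windows, FBXW7 4, FBXO5 2, and FZR1 2. With any window of a gene taken, an alternative added after the data were seen, a CHR element was present in 7 of the 9 members, a CCAAT box in 6, and both in 1 window in 5, with CUL1 and FBXW7 added to the first 2 counts and FBXW7 to the last. The second FBXO5 window, at the outer end of the gene, held neither. E2F sites were searched as TTTCCCGC, TTTGGCGC, TTTCGCGC, and TTTGCCGC on both strands, none of which contains either of the other motifs, and 0 of the 9 windows held 1 of these forms, against 3.31% of all windows. These are matches of letters, and they do not show whether a factor bound. E2F sites of other forms, or outside the windows, were not searched, so a gene without a match may still be an E2F target.

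**Figure D1:**
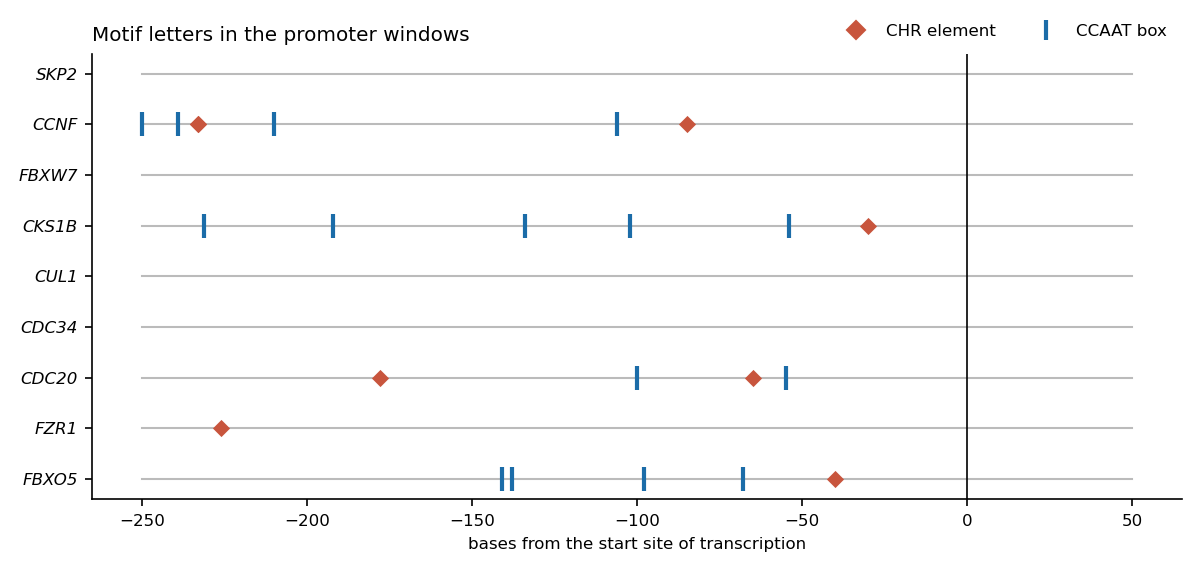
Positions of CHR elements (diamonds) and CCAAT boxes (bars) in the promoter windows of the 9 members with an entry, in bases from the start site of transcription, on either strand. CCNF, CKS1B, CDC20, and FBXO5 carry both elements, FZR1 carries a CHR element only, and the SKP2, FBXW7, CUL1, and CDC34 lines are empty.

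Reads on genes numbered 11500537 to 31040903 per library. The lowest total was that of WT replicate 2, in which 58.7% of the reads fell outside genes, against 23.6% to 29.6% in the other libraries, and values without this library are given beside the results it moves most. Levels below are CPM, the counts scaled to a common library size with edgeR's TMM method. The level of E2F1 was 91.2 ± 9.43 CPM in pTRE (SD, n = 3), 1811 ± 445 in WT, 1158 ± 196 in R109K, and 1316 ± 187 in KK. There was no overlap between pTRE and the other lines, which matched the labels of pTRE against the E2F1 lines. The level sums the endogenous transcript and the construct, and it does not show which construct a line carries. Osteoblast genes were present in part, with COL1A1 at 541 to 4079 CPM and RUNX2 at 7.78 to 18.8, whereas COL1A2, BGLAP, and IBSP were at or near 0. Some epithelial genes were present too, with KRT8 at 168 to 578 CPM, KRT18 at 185 to 332, and EPCAM at 9.88 to 14.7, while CDH1 was at 0.509 to 1.44. All 10 members were among the 16625 genes tested. A gene is said to have risen or fallen at an adjusted p under 0.01 in edgeR's quasi-likelihood test, with Benjamini-Hochberg adjustment over all genes tested, and to be regulated where its change was also greater than 2-fold.

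Against pTRE, 2 of the 10 members rose in WT, where 14.8% of all genes tested rose, and 1 fell, where 11.4% did. In R109K, 3 rose and 1 fell, against 10.0% and 7.23% of all genes. In KK, 2 rose and 1 fell, against 13.8% and 10.7%. The 2 members regulated upward in each line compare with 7.89% of all genes in WT, 4.64% in R109K, and 7.01% in KK. The 3 comparisons use the same pTRE libraries and are therefore not independent of one another.

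**Figure D2:**
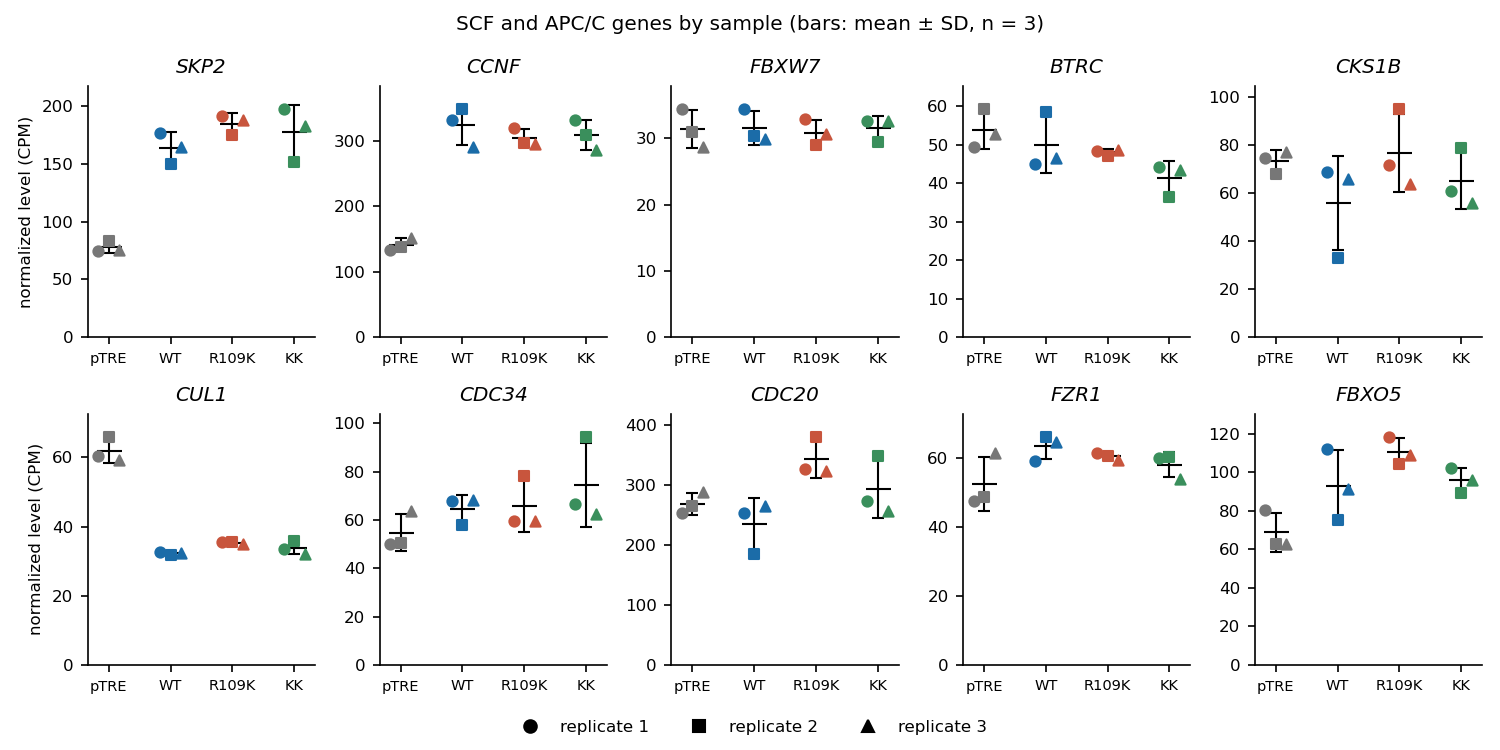
Normalized level (CPM, axes from 0) of the 10 members in each of the 12 libraries, with symbols for replicates and bars for the mean ± SD of each line (n = 3). SKP2 and CCNF sit above and CUL1 sits below all 3 pTRE libraries in every E2F1 line, while replicate 2 of WT stands below the other WT libraries in CKS1B and CDC20.

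SKP2 is the F-box protein best known for sending the CDK inhibitor p27 (CDKN1B) to the proteasome at the entry into S phase. The gene lies on chromosome 5 of GRCh37, from 36152091 to 36196951 on the plus strand. In pTRE its level was 74.5, 83.4, and 75.3 CPM in replicates 1, 2, and 3. It was 177, 150, and 164 CPM in WT, 191, 175, and 188 in R109K, and 198, 151, and 183 in KK. The lowest library of an E2F1 line, WT replicate 2, stood well above the highest of pTRE. The log2 fold change against pTRE was 1.07 ± 0.12 in WT (SE; adjusted p = 6.62e-06), 1.25 ± 0.12 in R109K (adjusted p = 2.89e-06), and 1.19 ± 0.12 in KK (adjusted p = 2.50e-06). SKP2 shares 365 exon bases with NADK2 on the opposite strand, and the strand setting of the counting is not given in the sources used here. NADK2 moved the other way, with log2 fold changes of -0.48 in WT (adjusted p = 0.00356), -0.35 in R109K (adjusted p = 0.0322), and -0.57 in KK (adjusted p = 0.00104), and had a mean of 31.8 CPM in pTRE.

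CKS1B encodes the small cofactor that SKP2 needs to bind phosphorylated p27, and it lies on chromosome 1 from 154947129 to 154951727, plus strand. Its level was 74.5, 68.1, and 77.3 CPM in pTRE and 68.7, 33.2, and 65.8 in WT. It was 71.5, 95.1, and 63.7 CPM in R109K and 61.0, 78.7, and 56.0 in KK, so that the 4 lines overlapped. The replicates spread widely, and the 95% interval of the log2 fold change ran from -0.86 to 0.09 in WT, from -0.40 to 0.54 in R109K, and from -0.64 to 0.30 in KK. Without WT replicate 2 the WT change went from -0.38 to -0.13. The ratio of SKP2 to CKS1B counts within a library was 1.07 ± 0.138 in the pTRE line (SD, n = 3), while it averaged 3.20 ± 1.15 for WT, 2.49 ± 0.582 for R109K, and 2.81 ± 0.769 for KK. GENCODE annotates 7 pseudogenes of CKS1B, none of which is listed in the counts, and reads that map to several places were not counted.

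CCNF encodes cyclin F, an F-box protein that does not pair with a CDK and that acts on RRM2, CDC6, CCP110, and other proteins in S phase and G2. It lies on chromosome 16, from 2479395 to 2508855 on the plus strand, and its window is printed above. The level was 134, 138, and 152 CPM in pTRE and 332, 349, and 291 in WT. It was 320, 296, and 296 CPM in R109K and 332, 310, and 286 in KK. Every library of an E2F1 line exceeded every pTRE library. The log2 fold change was 1.20 ± 0.12 in WT (SE; adjusted p = 1.46e-06), 1.11 ± 0.11 in R109K (adjusted p = 5.55e-06), and 1.13 ± 0.12 in KK (adjusted p = 2.47e-06). For SKP2 and CCNF the estimates exceeded 2-fold, but when the change was tested against 2-fold itself with glmTreat, 0 members passed in any line, since each 95% interval reaches below a log2 fold change of 1.

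FBXW7 and BTRC encode F-box receptors that read phosphorylated degrons, FBXW7 on cyclin E and MYC and BTRC on CTNNB1, WEE1, and NFKBIA. FBXW7, on chromosome 4 from 153241696 to 153457244 on the minus strand, was the steadiest member, at 28.7 to 34.4 CPM over the 12 libraries. Its log2 fold changes of 0.01 in WT, -0.02 in R109K, and 0.01 in KK had 95% intervals that ran from -0.26 to 0.25 at the widest. BTRC lies on chromosome 10 from 103113790 to 103317078 on the plus strand, and its level was 49.4, 59.3, and 52.7 CPM in pTRE and 45.1, 58.5, and 46.4 in WT. It was 48.2, 47.1, and 48.6 CPM in R109K and 44.2, 36.3, and 43.5 in KK. The R109K and KK libraries lay below all 3 pTRE libraries, by little in R109K, and the KK change of -0.38 ± 0.12 on the log2 scale missed the threshold (adjusted p = 0.0262).

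CUL1 encodes the scaffold on which every one of these F-box receptors acts. It lies on chromosome 7, from 148395006 to 148498202 on the plus strand. The level was 60.5, 66.0, and 59.4 CPM in pTRE, but 32.8, 31.9, and 32.3 in WT. It was 35.6, 35.6, and 34.9 CPM in R109K and 33.6, 35.7, and 32.1 in KK. The 9 libraries with an E2F1 construct fell in a range of 31.9 to 35.7 CPM, with no overlap with pTRE. The log2 fold change was -0.94 ± 0.10 in WT (SE; adjusted p = 3.00e-06), -0.81 ± 0.10 in R109K (adjusted p = 2.11e-05), and -0.87 ± 0.10 in KK (adjusted p = 5.81e-06), so it did not reach 2-fold. CDC34 encodes the E2 enzyme that extends ubiquitin chains on SCF substrates and lies on chromosome 19, from 531760 to 542092 on the plus strand. It was at 50.1, 50.4, and 63.8 CPM in pTRE, 67.7, 57.8, and 68.0 in WT, 59.3, 78.2, and 59.4 in R109K, and 66.7, 94.4, and 62.5 in KK. The lines overlapped, and the largest difference, 0.44 ± 0.17 in KK on the log2 scale, had an adjusted p of 0.0466 and was 0.24 without KK replicate 2.

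The change of SKP2 and CCNF relative to CUL1 can also be read within each library with no normalization. Read counts of SKP2 were 1.25 ± 0.0199 times those of CUL1 in pTRE (SD, n = 3), 5.06 ± 0.347 times in WT, 5.23 ± 0.273 in R109K, and 5.27 ± 0.902 in KK. For CCNF the ratio to CUL1 was 2.29 ± 0.247 in pTRE, 10.0 ± 0.971 in WT, 8.60 ± 0.353 in R109K, and 9.15 ± 0.641 in KK. Because counts also follow transcript length, only the change of a ratio between lines is informative, not its value. The lowest SKP2 to CUL1 ratio of an E2F1 library, 4.23 in KK replicate 2, lay above the highest of pTRE, 1.27.

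**Figure D3:**
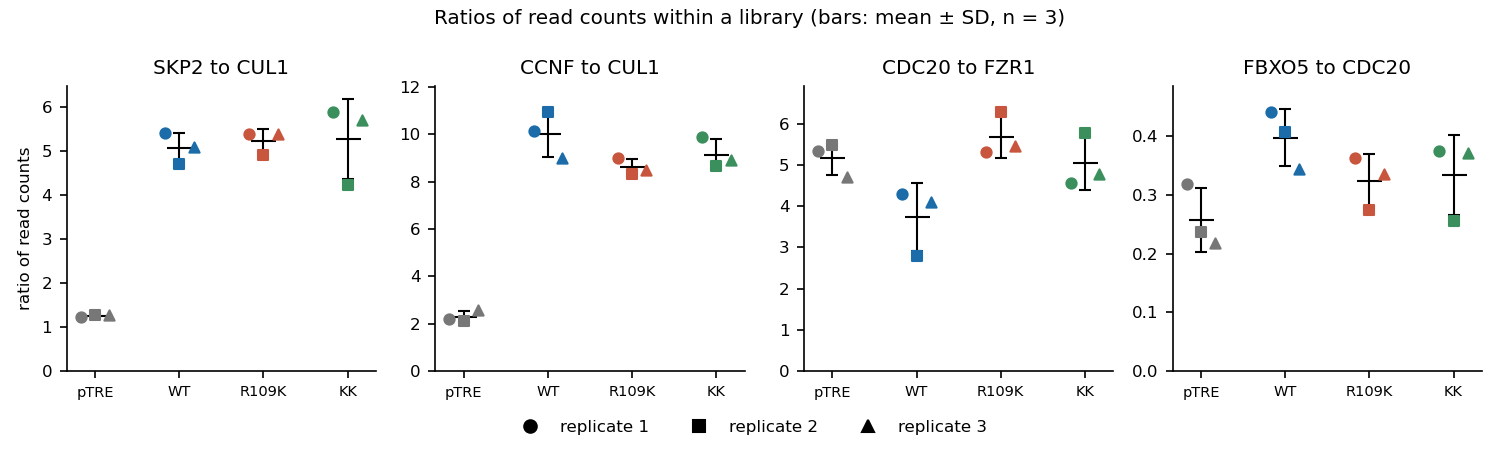
Ratios of read counts between members within each library (axes from 0), with symbols for replicates and bars for the mean ± SD of each line (n = 3). Both ratios to CUL1 are several times higher in the 9 E2F1 libraries than in pTRE, whereas the CDC20 to FZR1 and FBXO5 to CDC20 ratios differ less, with the lowest CDC20 to FZR1 ratio in WT replicate 2.

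Of the APC/C regulators, FBXO5 encodes the inhibitor that keeps both coactivators idle until mitosis and lies on chromosome 6, from 153291654 to 153304714 on the minus strand. Its level was 80.8, 62.8, and 62.9 CPM in pTRE and 112, 75.2, and 91.5 in WT. It was 119 and 105 CPM in replicates 1 and 2 of R109K, with replicate 3 between them, and 103, 89.4, and 96.0 CPM in KK. The R109K and KK libraries lay above all 3 pTRE libraries, while WT replicate 2 fell within their range. FBXO5 rose by 0.69 ± 0.15 on the log2 scale in R109K (SE; adjusted p = 0.00235). The differences of 0.44 ± 0.15 in WT (adjusted p = 0.0261) and 0.48 ± 0.15 in KK (adjusted p = 0.0172) missed the threshold. The WT value passed without WT replicate 2 (0.56, adjusted p = 0.00359). The R109K value missed it without pTRE replicate 2, pTRE replicate 3, or R109K replicate 1 (adjusted p = 0.0177, 0.0165, and 0.0160). With DESeq2, FBXO5 passed in KK (adjusted p = 0.00741) as well as in R109K, and in KK it also passed without pTRE replicate 1 (adjusted p = 0.00943) or with only the 6 samples compared (adjusted p = 0.00873). With a replicate block it passed in both WT and KK, with the values given in the closing section.

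CDC20, the coactivator that targets securin and cyclin B at the start of anaphase, lies on chromosome 1 from 43824652 to 43828874 on the plus strand. Its level was 253, 266, and 289 CPM in pTRE and 254, 185, and 265 in WT. It was 326, 381, and 324 CPM in R109K and 274, 349, and 258 in KK. All 3 R109K libraries stood above all of pTRE and of WT, while KK overlapped with each. The log2 fold change against pTRE was -0.20 ± 0.15 in WT (SE; adjusted p = 0.316), 0.35 ± 0.15 in R109K (adjusted p = 0.1001), and 0.12 ± 0.15 in KK (adjusted p = 0.568). The WT value was -0.053 without WT replicate 2. FZR1, the coactivator of late mitosis and G1, lies on chromosome 19 from 3506309 to 3538332 on the plus strand. Its level was 47.5, 48.5, and 61.5 CPM in pTRE, 59.1, 66.2, and 64.6 in WT, 61.4, 60.6, and 59.2 in R109K, and 60.0, 60.3, and 53.8 in KK. Replicate 3 of pTRE lay as high as the E2F1 lines, and the largest difference, 0.27 ± 0.12 in WT on the log2 scale, missed the threshold (adjusted p = 0.0747). FZR1 shares 74 exon bases with MFSD12 on the opposite strand, whose log2 differences of -0.44, -0.46, and -0.45 in WT, R109K, and KK also missed it. The ratio of CDC20 to FZR1 counts was 5.17 ± 0.414 in pTRE (SD, n = 3), 3.73 ± 0.821 in WT, 5.69 ± 0.525 in R109K, and 5.05 ± 0.653 in KK.

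**Figure D4:**
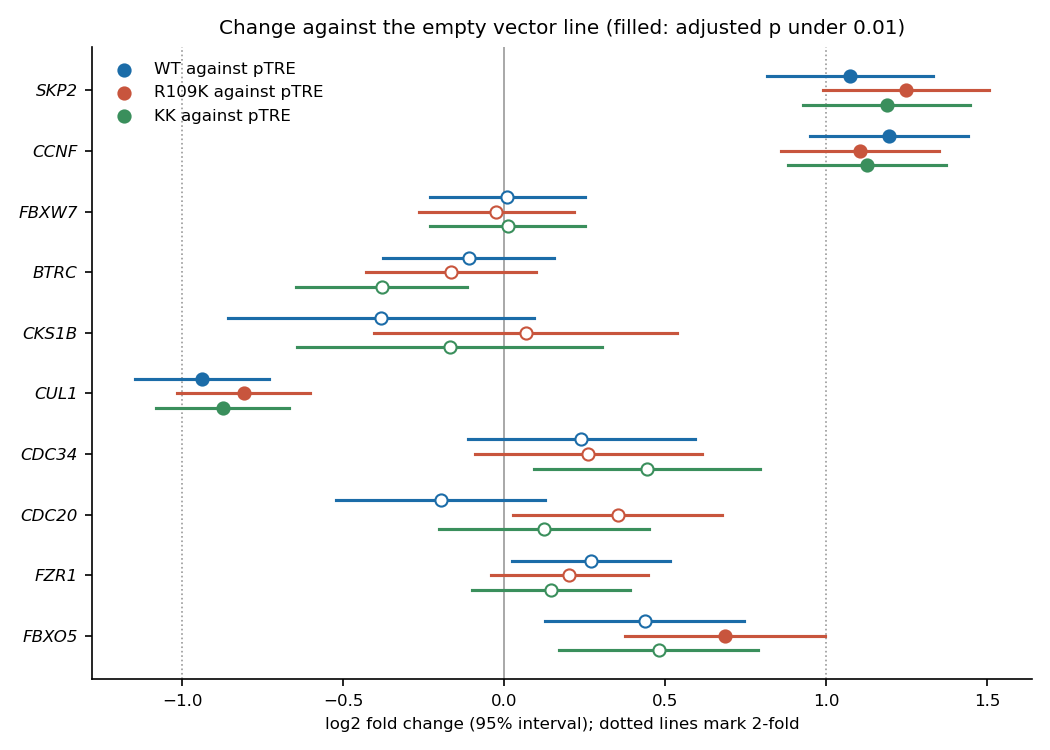
Log2 fold change of each member against pTRE in WT, R109K, and KK, with 95% intervals of the quasi-likelihood model and filled points at an adjusted p under 0.01. SKP2 and CCNF lie near a log2 fold change of 1 and CUL1 between -0.94 and -0.81 in each line, and the only other filled point is FBXO5 in R109K.

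The direct comparisons between E2F1 lines ask whether these genes differ between lines that carry different constructs. An arginine change and other features of a line cannot be told apart in them. None of the 10 members passed edgeR's test in R109K against WT, where 0.710% of all genes were called, in KK against WT (0.0120%), or in R109K against KK (0.132%). DESeq2 called 0 members in each as well. At an unadjusted p under 0.05 there was 1 member in R109K against WT (CDC20), where 22.3% of all genes had such a p, 1 in KK against WT (BTRC), where 8.51% did, and 0 in R109K against KK, where 12.4% did. The counts of members are thus near or below the share of all genes. CDC20 was higher in R109K than in WT by 0.55 on the log2 scale (95% interval 0.22 to 0.88; adjusted p = 0.0596), with every R109K library above every WT library. Without WT replicate 2 the difference was 0.40 (adjusted p = 0.166). BTRC was lower in KK than in WT by a log2 difference of -0.27 (95% interval -0.54 to -0.0027; adjusted p = 0.574), again with no overlap of the libraries. This value was -0.15 without WT replicate 2.

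For the members called against pTRE, the intervals bound how far the lines could differ. The 95% interval of the log2 difference between R109K and WT was -0.08 to 0.43 for SKP2, -0.33 to 0.15 for CCNF, -0.08 to 0.34 for CUL1, and -0.06 to 0.56 for FBXO5. Between KK and WT it was -0.14 to 0.37 for SKP2, -0.31 to 0.17 for CCNF, -0.14 to 0.27 for CUL1, and -0.27 to 0.35 for FBXO5. Between R109K and KK it was -0.19 to 0.31 for SKP2, -0.26 to 0.22 for CCNF, -0.14 to 0.27 for CUL1, and -0.10 to 0.51 for FBXO5. Differences within these bounds remain compatible with the values of the 3 replicates. The level of E2F1 itself differed among the lines by a log2 difference of -0.65 between R109K and WT (adjusted p = 0.0577), and its part in these values was not tested.

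The other genes of both machines were read from lists that, like the members, were chosen with earlier results of these data known. Of 24 genes of the SCF core and of neddylation, the modification that activates cullins, 1 rose and 0 fell in WT, 0 rose and 0 fell in R109K, and 1 rose and 0 fell in KK. The gene that rose was UBE2M, the E2 enzyme for NEDD8, with log2 fold changes of 0.55 in WT (SE 0.15; adjusted p = 0.00913) and 0.74 in KK (SE 0.15; adjusted p = 0.00116). In R109K it was 0.53 (SE 0.15; adjusted p = 0.0148), also with every library above pTRE. Over all genes tested, 14.8%, 10.0%, and 13.8% rose and 11.4%, 7.23%, and 10.7% fell in WT, R109K, and KK. The list medians were -0.15, 0.01, and 0.005 in WT, R109K, and KK, against 0.002, -0.0007, and -0.009 over all genes tested. The SKP1 adaptor, the RING protein RBX1, and the COP9 signalosome, which removes NEDD8, are in this list, and none of these fell beside CUL1. NEDD8 itself was below pTRE in every library of each line, at -0.56, -0.43, and -0.33 in WT, R109K, and KK. UBA3 was at -0.43, -0.22, and -0.43, and neither gene passed in any line. Of 14 APC/C subunits, 1 fell in WT (ANAPC16, -0.65), 0 passed in R109K, and 1 fell in KK (CDC16, -0.37), with 0 rising in any line and medians of -0.13, 0.04, and -0.17.

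Of 13 other F-box genes with cell cycle roles, 2 rose and 2 fell in WT, 1 rose and 3 fell in R109K, and 1 rose and 1 fell in KK. Over all genes tested, 14.8% rose and 11.4% fell in WT, 10.0% and 7.23% in R109K, and 13.8% and 10.7% in KK, so the counts of this list are near or below those of all genes except for the falls in R109K. FBXO45, an atypical F-box gene, rose by 1.22 ± 0.12 on the log2 scale in WT (SE; adjusted p = 1.93e-06), 0.79 ± 0.12 in R109K (adjusted p = 0.000176), and 1.02 ± 0.12 in KK (adjusted p = 1.06e-05). FBXL2 fell in each line, with log2 fold changes of -0.56, -0.71, and -0.59. Of 12 E2 enzymes and checkpoint genes of the APC/C that were tested, 3 rose in WT, 4 in R109K, and 4 in KK, and 0 fell. UBE2S, which extends chains on APC/C substrates, rose by 0.84, 1.12, and 1.33 on the log2 scale in WT, R109K, and KK. BUB1 and BUB1B, of the spindle checkpoint that restrains CDC20, rose in each line, by 0.40 to 0.55 and 0.53 to 0.70. Of the same list, MAD2L1, BUB3, TTK, and MAD1L1 did not pass in any line, with MAD2L1 at -0.34, 0.23, and -0.19 in WT, R109K, and KK. UBE2C did not pass either, at 0.02, 0.30, and 0.36.

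Of 30 genes for SCF substrates, 14 rose and 2 fell in WT, 13 rose and 1 fell in R109K, and 14 rose and 2 fell in KK. Over all genes tested, 14.8%, 10.0%, and 13.8% rose and 11.4%, 7.23%, and 10.7% fell in WT, R109K, and KK. The list medians were 0.44, 0.48, and 0.43 on the log2 scale, against 0.002, -0.0007, and -0.009 over all genes. RRM2, the ribonucleotide reductase subunit that cyclin F targets, rose by 2.37 ± 0.14 in WT (SE; adjusted p = 1.20e-08), 2.28 ± 0.14 in R109K (adjusted p = 5.09e-08), and 2.39 ± 0.14 in KK (adjusted p = 1.22e-08). The E-type cyclins CCNE2 and CCNE1, substrates of FBXW7, rose by 2.24 and 1.59 in WT, 2.06 and 1.54 in R109K, and 2.16 and 1.70 in KK. FOXO1, a substrate of SKP2, rose by 2.15 in WT, 1.16 in R109K, and 1.73 in KK. CDKN1B, the best known substrate of SKP2, was picked after its values were seen, and its RNA rose by 0.88, 1.05, and 0.94 in the 3 lines. The genes that fell were CCND1, in each line, and ORC1, in WT and KK. RRM2 and the E-type cyclins are known E2F targets and stand in the G1/S list as well, where the genes that fell were MCM genes.

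Of 27 genes for APC/C substrates that were tested, 9 rose and 1 fell in WT, 21 rose and 0 fell in R109K, and 12 rose and 1 fell in KK. Over all genes tested, 14.8%, 10.0%, and 13.8% rose and 11.4%, 7.23%, and 10.7% fell in these lines. The list medians were 0.37, 0.57, and 0.45, against 0.002, -0.0007, and -0.009 over all genes. Without WT replicate 2, 12 genes of the list rose and 1 fell in WT, and the list median was 0.44. NUSAP1, a spindle protein, rose by 1.17 ± 0.11 in WT (SE; adjusted p = 1.02e-06), 1.00 ± 0.11 in R109K (adjusted p = 7.74e-06), and 1.32 ± 0.11 in KK (adjusted p = 2.96e-07). TK1, thymidine kinase, fell by 0.94 on the log2 scale in WT and 0.78 in KK. The place of SNCAIP in this list is uncertain, and it is among the genes that rose in each line. In the direct comparisons 0 of the 27 genes passed, with list medians of 0.21 in R109K against WT and 0.13 in R109K against KK, against -0.0092 and 0.0033 over all genes, so a difference between lines is neither shown nor bounded by these counts.

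Genes that peak in G1/S or G2/M were counted as well, since CDC20, CCNF, FBXO5, and CKS1B are themselves periodic. Over all genes tested, 14.8%, 10.0%, and 13.8% rose and 11.4%, 7.23%, and 10.7% fell in WT, R109K, and KK. Of 25 G2/M genes, 11 rose in WT, 17 in R109K, and 12 in KK, and 0 fell in any of them. The G2/M and APC/C substrate lists share CCNB1, CCNB2, PLK1, AURKA, AURKB, TPX2, CKAP2, HMMR, NUSAP1, and TOP2A, so their counts are not independent. NUSAP1 is in the SCF substrate list as well. Summed over the G2/M genes, pTRE libraries held 5785 to 6387 CPM, WT libraries 7933 to 8647, R109K libraries 8480 to 9680, and KK libraries 8220 to 8971. Of 25 G1/S genes, 5 rose and 3 fell in WT, 6 rose and 2 fell in R109K, and 5 rose and 4 fell in KK, with medians of 0.03, 0.16, and 0.14 on the log2 scale. MCM5 and MCM6 fell in each line, by log2 fold changes of -0.91 and -0.88 in WT, -0.92 and -0.63 in R109K, and -1.02 and -0.81 in KK. MCM3 also fell in WT and KK, and MCM2 in KK. The sum of the 25 G1/S genes was 4120 to 4289 CPM in pTRE and 5117 to 6750 over the other libraries. However, RRM2 alone went from a mean of 418 CPM in pTRE to 2154 in WT, 2033 in R109K, and 2197 in KK. Without RRM2, pTRE libraries summed to 3724 to 3865 CPM and WT libraries to 3314 to 4140. R109K libraries summed to 3986 to 4137 CPM and KK libraries to 3823 to 4063. WT reached into or below the pTRE range only through replicate 2, the library of lowest depth, while WT replicates 1 and 3 held 4140 and 3912 CPM. KK overlapped with pTRE only through replicate 3. The part of the cell cycle phase in the values of SKP2, CCNF, and FBXO5 was not tested. Fewer cells of a phase and less RNA per cell cannot be told apart in bulk RNA.

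**Figure D5:**
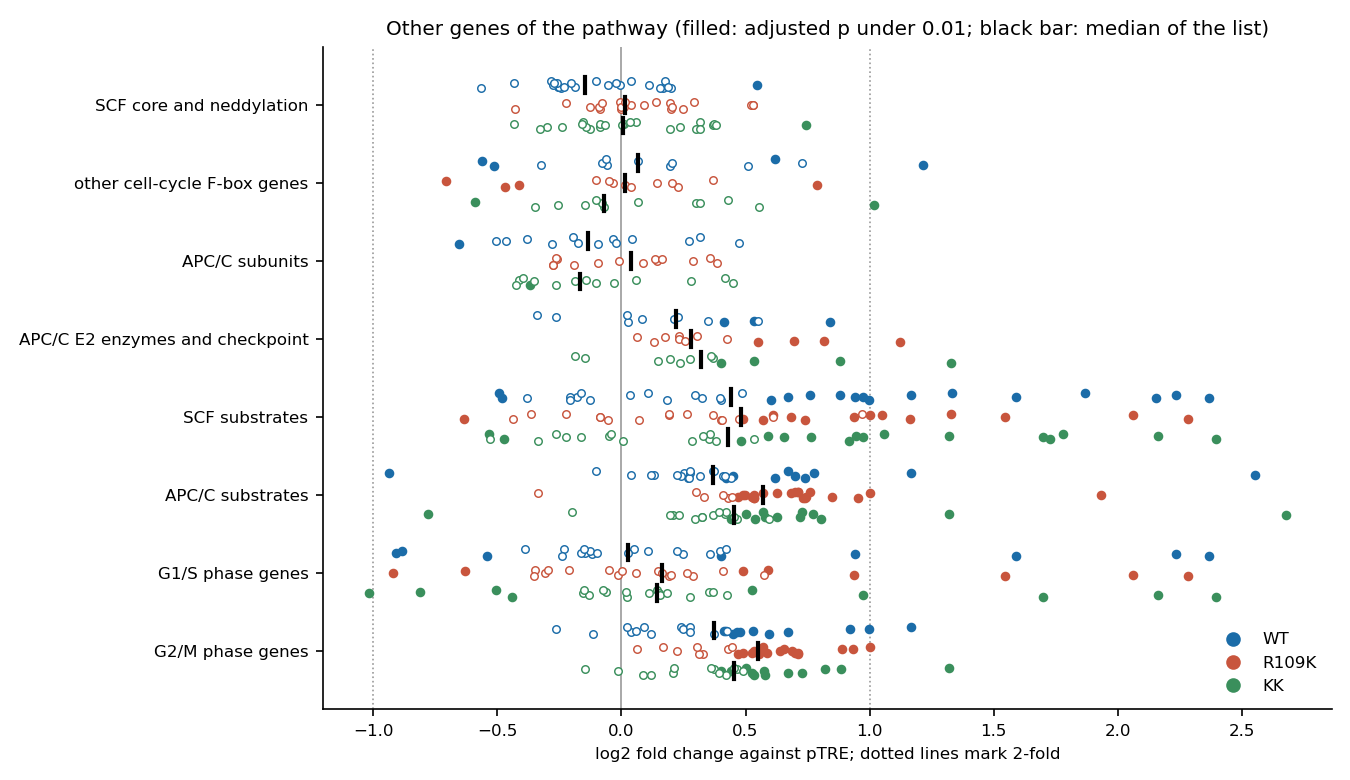
Log2 fold change against pTRE of each gene tested in 8 lists, by E2F1 line, with filled points at an adjusted p under 0.01 and a black bar at the median of the list. The SCF core and APC/C subunit lists stay around 0 with 1 filled point at most per line, whereas the substrate and G2/M lists lie mostly to the right of 0, with medians of 0.37 to 0.57. Some genes stand in both the APC/C substrate list and the G2/M list.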

How the data were processed

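RNA-seq was analysed in 12 samples. The authors deposited counts, whole numbers of reads per gene symbol without normalization, with 5 summary lines for reads not counted, which were left out. Per the labels and the methods, reads were trimmed with Trim Galore 0.4.3 and aligned to hg19 with STAR 2.5.1. The annotation and the strand setting are not given in the sources used here. Counts were fitted in edgeR 4.0.16 (R 4.3.3) by a quasi-likelihood model of all 12 samples with a mean per line, after filterByExpr (16625 genes) and TMM. Adjustment was by Benjamini-Hochberg over all genes tested, with thresholds of 0.01 and 2-fold. The common dispersion was 0.0239. Depth ranged from 11500537 to 31040903 reads on genes. No statement beyond 3 biological replicates per line was found, so p-values measure the spread between these samples. On counts simulated for WT against pTRE over 15840 genes, with 200 changed by a log2 of 1.5, 199 were called, 198 of them correctly. The simulation used the common dispersion for all genes and a change larger than that of any member. It therefore does not show how well changes of the size seen in the members are found.

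Named genes were the 10 members, E2F1, up to 3 rises and 3 falls per list regulated in WT (mean count 50 or more), and the 3 genes correlated best with each regulated member. Some list genes outside this rule (UBE2M, NEDD8, UBA3, ANAPC16, CDC16, FBXL2, UBE2S, UBE2C, BUB1, BUB1B, MAD2L1, BUB3, TTK, MAD1L1, CDKN1B, CCND1, ORC1, TK1, SNCAIP, MCM2, MCM3, MCM5, and MCM6) were named after their values were seen, as were NADK2 and MFSD12. The members and lists were chosen with earlier results of these data known. Gene positions are from GENCODE on GRCh37. Alternatives were DESeq2 1.42.0, RLE, no filter, a minimum of 10 counts in every sample, only the 6 samples compared, a replicate block, other thresholds, and each replicate left out.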

Additional observations from a re-analysis of the deposited data

Results flagged for a closer look

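The log2 difference of 0.55 in CDC20 between R109K and WT stands out because the 3 R109K libraries lay above the pTRE mean of 269 CPM and the 3 WT libraries lay below it. The test of the difference itself did not pass (edgeR quasi-likelihood, adjusted p = 0.0596), although it was in the same direction in every pair of libraries. Over the alternatives the difference ranged from 0.40 without WT replicate 2 to 0.65 without WT replicate 3. In WT replicate 2, the library with the lowest depth, CDC20 was at 185 CPM against 254 and 265 in the other WT libraries, and the part of that library's low share of reads on genes was not tested.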

How the results depend on the processing

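SKP2, CCNF, and CUL1 kept their direction and their call against pTRE under each alternative run, with log2 fold changes of 1.01 to 1.30 for SKP2, 1.06 to 1.25 for CCNF, and -0.97 to -0.76 for CUL1 over the 3 lines. The call of FBXO5 depended on the setting in each line, as given above. At an adjusted p under 0.05, the members that rose in KK went from 2 to 4 (FBXO5 and CDC34 added) and those that fell from 1 to 2 (BTRC added). Tested against 2-fold with glmTreat, the members regulated upward numbered 0 in WT, 0 in R109K, and 0 in KK. Of the 150 pathway genes tested, those lower in R109K went from 6 to 10 with DESeq2, and those lower in WT went from 9 to 4 with only the 6 samples compared. With 1 library left out, genes higher in R109K ranged from 29 to 40 (29 without pTRE replicate 2), genes lower in KK from 4 to 9, and genes lower in R109K from 2 to 4.

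Values near 0 changed sign with 1 library left out. Against pTRE, the log2 fold change of FBXW7 ranged from -0.069 to 0.076 in WT, -0.084 to 0.046 in R109K, and -0.051 to 0.079 in KK, and was -0.0061 in WT without a filter. That of CKS1B in R109K ranged from -0.12 to 0.18, and that of CDC20 in KK from -0.020 to 0.21. Between R109K and KK, SKP2 ranged from -0.041 to 0.14 and CCNF from -0.080 to 0.024. FBXO5 in KK against WT ranged from -0.087 to 0.21, and BTRC in R109K against WT from -0.12 to 0.064.

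Replicate numbers did not pair the samples on average, and whether some of the lines shared a batch was not tested. The deviations of the 18 same-number pairs correlated at a mean of 0.0436 (-0.295 to 0.470), and 5 pairs exceeded 0.1. With a replicate block, FBXO5 passed in WT (0.43, adjusted p = 0.00711) and in KK (0.49, adjusted p = 0.00350), so 3 members rose in each, and the other calls on members were the same. The cause of these shifts was not tested. Depth was least in WT replicate 2, at 11500537 reads on genes.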

Other observations

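The genes whose log2 CPM followed the regulated members most closely, among 13305 genes over the 12 libraries, were LYPD6 (Pearson r = 0.996), LGI2 (0.994), and CLDN1 (0.987) for SKP2, and FCHO1 (0.995), TP73 (0.994), and KCNG3 (0.993) for CCNF. These correlations describe 4 lines that share a design and mainly separate pTRE from the other lines. CLDN1, a tight junction protein, was at 9.54 ± 1.31 CPM in pTRE (SD, n = 3), 36.96 ± 5.66 in WT, 45.3 ± 4.17 in R109K, and 41.2 ± 4.55 in KK. TP73, a p53 family gene, was at 17.2 ± 3.56 CPM in pTRE, 98.0 ± 11.4 in WT, 87.1 ± 5.74 in R109K, and 99.6 ± 6.01 in KK. Within the members, replicate 2 stood highest of its line for CKS1B, CDC34, and CDC20 in both R109K and KK, and lowest for the same genes in WT.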
